A study of Mus musculus with 2 samples.

Results

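The genes described here are 9 members of the gp130 cytokine pathway, out of 32285 features counted in 2 mouse lung sections: the ligands Osm and Lif, the receptor chains Il6st, Lifr, Osmr, Il6ra and Il11ra1, and the intracellular genes Stat3 and Socs3. They are named by symbol, and all 9 were present in the feature table. The questions were where each receptor and ligand was counted by spot compartment and by distance to tumour spots, which ligand was detected where Il6 was not, and whether Socs3 followed it.

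Cytokines of the interleukin-6 family signal through gp130, the receptor subunit encoded by Il6st, which pairs with a ligand-specific chain: Il6ra binds interleukin-6, Il11ra1 binds interleukin-11, Lifr binds leukemia inhibitory factor, and Osmr binds oncostatin M. Receptor engagement activates Janus kinases, which phosphorylate STAT3. STAT3 in turn induces Socs3, an inhibitor that binds the activated receptor and dampens the signal, so Socs3 mRNA is widely read as a feedback target of the pathway, although other cytokines induce it too. In the lung, epithelial, endothelial and mesenchymal cells carry gp130, and oncostatin M is known to come mainly from neutrophils, macrophages and T cells.

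One section came from the lung of a mouse with metastases (4T1 m.f.p.: 4T1 mouse mammary carcinoma cells, 1000000 injected into the mammary fat pad, lung taken 21 to 23 days later) and the other from a control lung without treatment. The study's methods describe female BALB/c mice of 6 to 8 weeks with no engineered allele. Both sections were permeabilized for 18 min and profiled with Visium, an array of barcoded spots that each collect RNA from several cells, so a level is that of a small region and not of a cell. With 1 section per condition there is no replicate, no test was made, and mouse, section and library cannot be told apart from the condition.

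The control section had 20329126 counts over 1888 spots (median 9643.5) and the metastatic section 14657881 over 1110 spots (median 11334.5). All array positions carry the same barcodes on both capture areas, and 858 barcodes lay over tissue in both, so shared barcodes do not mark shared spots. Levels are given as summed counts of a gene per 10000 counts of all genes (CP10k) with an exact 95% Poisson interval, and ratios of levels with an exact interval from the binomial split of the summed counts. These intervals cover counting error alone, and in spots fewer cells of a type and less RNA per cell cannot be told apart.

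Tumour spots were the 167 spots of 1 expression cluster, found without the members or their pathway genes, and they formed a larger metastasis of 125 spots and a smaller one of 42. A finer clustering marked 88 of them as a core, and the other 79 are called the rim. The epithelial genes of the 4T1 list did not mark the core together. Krt8 was at 2.28 CP10k in the core and 1.39 CP10k in lung over 500 µm away and Krt18 at 1.66 and 0.768 CP10k, but Krt7 was at 0.256 and 2.58 CP10k, Epcam at 0.0920 and 0.539 CP10k and Cdh1 at 0.105 and 0.970 CP10k, and Krt14 had no count in either. The name tumour thus rests on the proliferation genes of the list, with Top2a, a topoisomerase of dividing cells, at 1.43 CP10k in the core and 0.0818 CP10k in that distant lung. Below, near means spots outside the tumour within 200 µm of a tumour spot (106 spots) and far means over 500 µm from one (654 spots). Core and rim differed in the other cells they held, since the summed endothelial markers were at 2.56 CP10k in the core, 20.2 in the rim and 52.6 in far lung.

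Osm encodes oncostatin M and lies on chromosome 11 (chr11:4236420-4241026, plus strand, GRCm38), and Lif, which encodes leukemia inhibitory factor, follows it at chr11:4257557-4272514 on the same strand with 16530 bases between them. Both were counted rarely. Lif gave 50 counts in 43 spots of the metastatic section and 19 counts in 19 spots of the control section, and Osm gave 30 counts in 27 spots and 13 counts in 13 spots. Neither ligand exceeded 2 counts in a spot. Il6, the ligand that gives the family its name, gave 2 counts in the metastatic section and 1 in the control section.

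Lif was counted mostly in the metastases. The core held 24 of its counts (0.158 CP10k, 0.101 to 0.235), the rim 9 (0.0867 CP10k), the near spots 5 (0.0326 CP10k), the spots over 200 to 500 µm away 3, those over 500 to 900 µm away 7 and those over 900 µm away 2. The Lif level in the core was 14.4-fold that of far lung (6.44 to 35.1) and in the rim 7.88-fold (2.77 to 22.4). The core ratio was 35.7 with far set to over 900 µm, where 2 Lif counts remain. The rim ratio was 1.98 (0.0403 to 20.04) after thinning each spot to 5000 counts, which left 1 rim count, and 6.94 (0.718 to 34.8) at the smaller metastasis alone, both within counting error. Tumour spots held 66.0% of all Lif counts (51.2 to 78.8%) and 17.5% of all counts of the section. The core counts all came from the larger metastasis, whose 75 core spots stood at 0.161 CP10k (0.103 to 0.240); the 13 core spots of the smaller metastasis were shallow and had no Lif count, which allows up to 0.857 CP10k. Far lung and control lung differed in Lif by less than counting error (ratio 1.18, 0.469 to 2.73).

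Osm was counted in the tumour spots and across the lung, with 40.0% of its counts (22.7 to 59.4%) in tumour spots. The core held 5 counts (0.0329 CP10k, 0.0107 to 0.0767), the rim 7 (0.0674 CP10k, 0.0271 to 0.139), the near spots 1 and the far spots 13 (0.0159 CP10k, 0.00845 to 0.0272). The rim lay above far lung by 4.25-fold (1.43 to 11.4), and far lung above the control section by 2.48-fold (1.06 to 5.81) on 13 counts each. The rim ratio was within counting error with far set to over 900 µm (3.05, 0.986 to 8.88) and at the larger metastasis alone (3.74, 0.300 to 196). Near lung did not differ from far lung in Osm at this depth (ratio 0.411, 0.00967 to 2.74). That ratio became 2.31 (0.663 to 6.61) when distances were measured from the core alone, which moves rim spots into the near group, so it has no settled direction. Far over control fell to 2.17 (0.602 to 7.54) with every spot thinned to 5000 counts, an interval that includes 1.

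**Figure D1:**
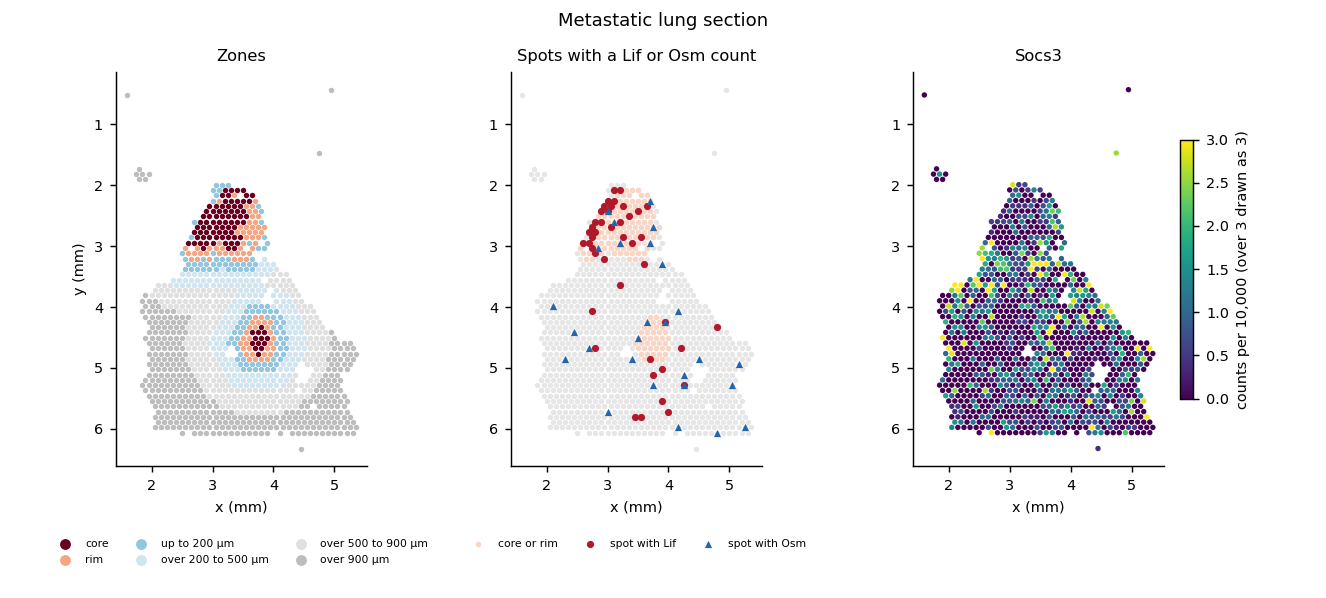
Spots of the metastatic section at their array positions (x and y in mm), coloured by zone (left), marked where Lif (red circles) or Osm (blue triangles) was counted (middle) and coloured by Socs3 in counts per 10000 (right). Lif spots gather in the larger metastasis, Osm spots lie in both metastases and across the lung, and Socs3 is low in the core and high along the border of the larger metastasis.

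Outside the tumour spots, neither ligand belonged to 1 compartment. Compartments are named by the marker list that a spot was rich in, and spots rich in none are called other lung. Osm gave 6 counts in other lung, 4 in macrophage-rich, 3 in neutrophil-rich, 2 in red blood cell-rich and 1 each in AT1-rich, endothelial-rich and T and NK cell-rich spots. The Osm level of the 178 neutrophil-rich spots did not differ from that of all other spots outside the tumour (ratio 0.986, 0.183 to 3.49). In the control section 5 of the 13 Osm counts lay in endothelial-rich spots and none in other lung. Lif gave 6 counts in macrophage-rich spots, 3 in other lung, 2 each in airway club and ciliated-rich, fibroblast-rich and mesothelium-rich spots, and 1 each in neutrophil-rich and T and NK cell-rich spots.

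Osm or Lif was counted in 67 spots of the metastatic section and Il6 in none of these 67. Only 3 spots held both Osm and Lif. In the tumour spots Il6 had no count, which allows up to 0.0197 CP10k in the core and 0.0289 CP10k in the rim, and Lif stood above these limits in both. Other gp130 ligand genes were counted in core and rim too: Clcf1 (26 and 23 counts), Ebi3 (5 and 16) and Ctf1 (4 and 7). Il27 had 5 and 6 counts, Cntf 2 and 2 and Il11 2 and 0. The 2 spots with an Il6 count, 1 macrophage-rich and 1 in other lung, both also held Socs3, which was counted in 529 of the 1110 spots. At 3 counts in 2 sections Il6 was too sparse for any comparison between zones.

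Of the 5 receptor chains, 4 were lowest in the core. Il6st, the shared gp130 chain (chr13:112464070-112510086, plus strand), was at 1.85 CP10k in the rim, between 1.61 and 1.90 CP10k in the 4 distance zones and at 1.77 CP10k in the control section, but at 0.664 CP10k (0.541 to 0.807) in the core. The core level was 0.366-fold that of far lung (0.296 to 0.447), and far lung and control lung were within counting error of each other (ratio 1.03, 0.966 to 1.09). That ratio was above 1 for the far spots closest to the larger metastasis (1.43, 1.25 to 1.63) and with a library size that left out abundant genes (1.13, 1.06 to 1.20). Near over far was 0.884 (0.769 to 1.01) over all spots. It was lower at the larger (0.777, 0.622 to 0.967) and the smaller metastasis alone (0.781, 0.642 to 0.944) and without airway-rich spots (0.784, 0.680 to 0.901). Rim over far was 0.686 (0.552 to 0.850) at the larger metastasis and 1.27 (0.960 to 1.66) at the smaller one. After thinning to 5000 counts per spot, Il6st was counted in 25.0% of core spots, 57.9% of rim spots, 58.2% of far spots and 59.2% of control spots; unthinned, these shares were 58.0%, 83.5%, 82.9% and 78.4%.

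Lifr, the receptor chain for leukemia inhibitory factor (chr15:7090614-7197489, plus strand), was lowest where Lif was highest. It was at 0.131 CP10k (0.0803 to 0.203) in the core, 0.395 CP10k (0.283 to 0.536) in the rim, between 0.685 and 0.777 CP10k in the distance zones and at 0.697 CP10k in the control section. The core was 0.179-fold far lung (0.109 to 0.280) and the rim 0.539-fold (0.383 to 0.740). The summed endothelial markers also fell, from 52.6 CP10k in far lung to 20.2 in the rim and 2.56 in the core. The part of endothelial cells in the Lifr levels was not tested. Near and far spots did not differ (ratio 1.06, 0.863 to 1.29), unless distances were measured from the core alone (0.494), which counts the rim as near.

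Osmr, the chain that binds oncostatin M (chr15:6813577-6874969, minus strand, 215644 bases from Lifr), stood higher in far lung than in the control section. It was at 0.178 CP10k (0.117 to 0.258) in the core, 0.376 in the rim, 0.411 (0.316 to 0.526) in near spots and 0.315 (0.278 to 0.356) in far spots, against 0.224 CP10k (0.204 to 0.246) in the control section. Far over control was 1.40-fold (1.20 to 1.64), while near over far was 1.31-fold with an interval that includes 1 (0.975 to 1.72). Il6ra, the interleukin-6 binding chain (chr3:89864059-89913196, minus strand), did not differ between core and far lung beyond counting error (ratio 1.11, 0.751 to 1.59), although at the larger metastasis alone the core was lower than its own far spots (0.602, 0.372 to 0.973). It was at 0.237 CP10k in the core, 0.289 in the rim, 0.294 in near spots and 0.214 in far spots, and the control section had 0.162 CP10k (0.145 to 0.181). Far lung was 1.32-fold the control section for Il6ra (1.09 to 1.59). The ratio was 2.48 (1.73 to 3.46) for the far spots closest to the larger metastasis and 1.16 (0.944 to 1.42), within counting error, for those closest to the smaller one.

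Il11ra1, the interleukin-11 receptor chain (chr4:41699989-41769474, plus strand), went the other way between sections. It was at 1.01 CP10k (0.969 to 1.06) in the control section, 0.686 (0.631 to 0.746) in far spots, 0.751 in near spots, 0.520 in the rim and 0.217 (0.149 to 0.305) in the core. Far lung stood at 0.678-fold the control section (0.617 to 0.745). Fibroblast and smooth muscle markers, lists of cells in which Il11ra1 is known to be expressed, also stood lower in far lung: 6 of 10 and 7 of 8 of them were at most 1/1.5 of the control level, and their part in the difference was not tested. The 3 features named Il11ra2, a near-identical copy of this gene, had no count in the spots compared, so reads that fit both copies may be missing from Il11ra1 and its level is uncertain.

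**Figure D2:**
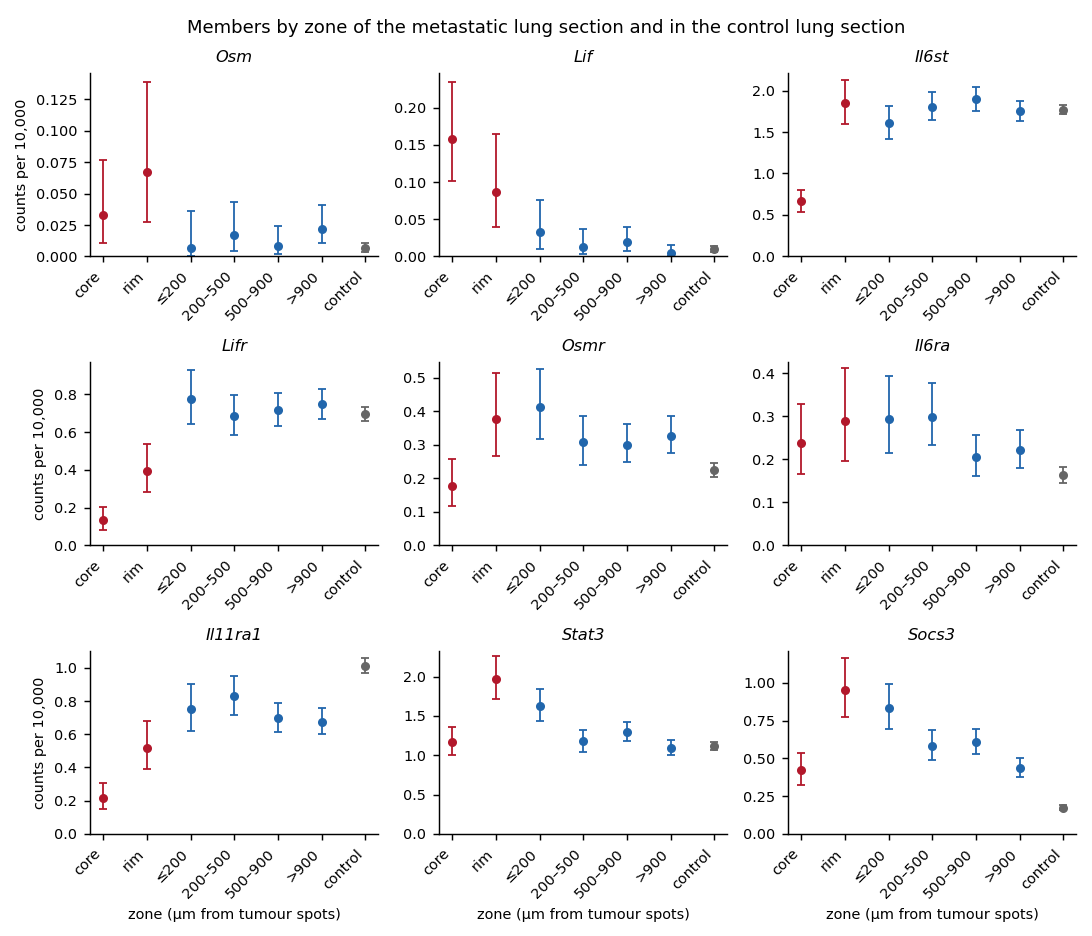
Level of each member in counts per 10000 (y axes start at 0) in the core and rim (red), in 4 zones of distance from tumour spots in µm (blue) and in the whole control section (grey), with exact 95% Poisson intervals. Il6st, Lifr and Il11ra1 drop in the core, Lif is highest there, and Stat3 and Socs3 peak in the rim and near spots.

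Across the compartments of the metastatic section, the receptor chains differed in which spots led. Only groups of at least 20 spots were ranked. This left out the AT2-rich (15), AT1-rich (17), B cell-rich (18) and fibroblast-rich spots (5) of the metastatic section. Il6st was highest in endothelial-rich spots (3.07 CP10k) and mesothelium-rich spots (2.84 CP10k) and lowest in airway club and ciliated-rich spots (0.740 CP10k) and the core (0.664 CP10k). Only the step down from red blood cell-rich (1.6 CP10k) to airway-rich spots was larger than the intervals of neighbours in that order. Lifr was also highest in endothelial-rich spots, at 1.29 CP10k there and 1.05 CP10k in the endothelial-rich spots of the control section, and was at 0.204 and 0.104 CP10k in the airway-rich spots of the metastatic and control section. Osmr was highest in mesothelium-rich spots (0.724 CP10k) followed by endothelial-rich spots (0.541 CP10k), with every neighbouring pair of intervals overlapping. Il11ra1 led in smooth muscle-rich spots (1.3 CP10k) in the metastatic section, where fibroblast-rich spots were not ranked. In the control section it led in fibroblast-rich spots (1.45 CP10k), followed by smooth muscle-rich spots (1.36 CP10k). Il6ra showed no step between neighbours in either section, from 0.350 CP10k in endothelial-rich spots down to 0.106 CP10k in airway-rich spots of the metastatic section. Socs3 led in mesothelium-rich spots of the metastatic section (1.3 CP10k, 0.969 to 1.70), followed by endothelial-rich spots (0.955 CP10k) and the rim (0.953 CP10k), with every neighbouring pair of intervals overlapping down to airway-rich spots (0.195 CP10k). Stat3 also led in mesothelium-rich spots (2.00 CP10k) and the rim (1.97 CP10k), and only the step down to airway-rich spots (0.571 CP10k) was larger than the intervals.

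Stat3, the transcription factor of the pathway (chr11:100885098-100939540, minus strand), and Socs3, its feedback inhibitor (chr11:117966079-117970047, minus strand), had their highest zone levels in the rim and near spots. The order of rim and near spots is not settled: the rim was higher on summed counts, but Socs3 was 1.62-fold far lung in near spots and 1.39-fold in the rim after thinning, and around the larger metastasis both genes were higher in near spots. Their promoters are shown because these 2 genes moved together by zone; Lif is shown as the ligand that peaked in the core. Each line is RefSeq sequence of GRCm38.p6 from 250 bases before to 50 bases after the transcript start, 5′ to 3′ on the gene's own strand: chr11:117969317-117969616 (minus) for Socs3, chr11:100939491-100939790 (minus) for Stat3 and chr11:4257318-4257617 (plus) for Lif. Capitals mark the STAT motif TTCNNNGAA, which is its own reverse complement and so covers both strands.
Socs3: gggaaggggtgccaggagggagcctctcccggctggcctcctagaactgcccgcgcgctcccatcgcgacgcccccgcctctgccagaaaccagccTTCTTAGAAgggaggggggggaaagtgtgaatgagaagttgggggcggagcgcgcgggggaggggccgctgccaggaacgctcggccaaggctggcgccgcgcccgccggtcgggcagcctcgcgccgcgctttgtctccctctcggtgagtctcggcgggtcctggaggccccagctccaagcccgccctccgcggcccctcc
Stat3: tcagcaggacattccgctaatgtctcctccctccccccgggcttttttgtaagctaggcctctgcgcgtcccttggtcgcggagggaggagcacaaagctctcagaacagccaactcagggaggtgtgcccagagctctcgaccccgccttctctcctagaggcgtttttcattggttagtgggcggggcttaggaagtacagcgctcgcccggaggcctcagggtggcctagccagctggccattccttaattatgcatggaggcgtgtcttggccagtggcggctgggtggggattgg
Lif: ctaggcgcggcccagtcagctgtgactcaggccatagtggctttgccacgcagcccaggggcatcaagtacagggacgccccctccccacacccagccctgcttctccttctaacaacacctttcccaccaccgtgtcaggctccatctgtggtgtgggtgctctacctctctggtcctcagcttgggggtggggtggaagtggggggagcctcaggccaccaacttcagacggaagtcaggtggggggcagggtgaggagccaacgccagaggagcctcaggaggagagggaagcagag
Of the 10 windows of the 8 members with an entry, the Socs3 window was the one that held the motif, as TTCTTAGAA with its first base 154 bases before the start, and 8.30% of all 32851 windows held it. A match is a run of letters and not a measured binding site. The start meant here is that of the RefSeq transcript. The whole Socs3 window lies inside the gene span given above, so by that span the match is not upstream of the gene. Osm had no entry.

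Socs3 was counted in both sections and in every zone. It was at 0.174 CP10k (0.156 to 0.193) in the control section. In the metastatic section it was at 0.435 CP10k (0.377 to 0.501) over 900 µm from the tumour spots, 0.609 (0.532 to 0.694) at 500 to 900 µm, 0.580 (0.487 to 0.685) at 200 to 500 µm, 0.836 (0.697 to 0.993) within 200 µm, 0.953 (0.775 to 1.16) in the rim and 0.421 (0.324 to 0.537) in the core. All 6 zones thus lay above the control section with no overlap of intervals, and the core and the most distant spots were the lowest of them. Stat3 was at 1.12 CP10k (1.07 to 1.17) in the control section, 1.18 (1.11 to 1.26) in far spots, 1.63 (1.44 to 1.85) in near spots, 1.97 (1.71 to 2.26) in the rim and 1.17 (1.00 to 1.36) in the core.

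Near lung exceeded far lung in Socs3 by 1.63-fold (1.33 to 1.99) and in Stat3 by 1.38-fold (1.20 to 1.59). The pooled Socs3 ratio was larger than that at either metastasis alone (1.46 and 1.22, given below). Of the 7 members with at least 20 counts over near and far spots, Socs3 alone reached 1.5-fold; over all 12882 genes with that many counts, 19.9% were at least 1.5-fold higher and 6.14% at most 1/1.5 as high, so 1 of 7 is near the background. The median log2 ratio was 0.39 over these members and 0.24 over all genes. The rim exceeded far lung by 1.86-fold in Socs3 (1.48 to 2.32) and 1.67-fold in Stat3 (1.43 to 1.94), and after thinning the Socs3 interval included 1 (1.39, 0.936 to 2.01). With Osm these were the 3 of 8 members past 1.5-fold there, against 41.6% of all genes higher and 17% lower. Relative to the core, the rim was higher by 2.27-fold in Socs3 (1.64 to 3.15) and 1.69-fold in Stat3 (1.37 to 2.07); 25.8% of all genes were at least 1.5-fold higher in the rim and 10.1% at most 1/1.5 as high. In the core, Lif was 1 of 8 members at least 1.5-fold above far lung (36.2% of all genes), and Il6st, Osmr, Lifr and Il11ra1 were at most 1/1.5 as high (28.1% of all genes).

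Abundant genes weigh on these ratios. Airway and blood transcripts fill far lung more than tumour spots, and with a library size that left out Scgb1a1 and the genes of haemoglobin, mitochondria, surfactant proteins and immunoglobulins, every near over far ratio was multiplied by 0.850, every rim over far ratio by 0.707 and every core over far ratio by 0.691. On that scale Socs3 was 1.38-fold higher near (1.13 to 1.69), 1.31-fold higher in the rim and 0.567-fold in the core, and Stat3 1.17-fold higher near, 1.18-fold in the rim and 0.684-fold in the core, so that both genes then lay below far lung in the core beyond counting error. Il6st then stood at 0.751-fold in near spots and 0.720-fold in the rim. Macrophage markers moved with Socs3: their summed level was 20.6 CP10k in the rim, 11.3 in near spots and 5.35 in far spots, with 10 and 8 of 10 genes at least 1.5-fold above far lung in the rim and near spots. The T and NK cell markers did likewise, at 6.87, 2.94 and 1.65 CP10k, and so did the B cell markers, at 4.80, 2.68 and 1.33 CP10k. Mesothelium markers were higher in near spots (1.08 CP10k) than in far spots (0.496 CP10k) but not in the rim (0.337 CP10k). The core had 18.5 CP10k of macrophage markers and low Socs3, and the part of these cells in the Socs3 levels was not tested.

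The near excess of Socs3 was clearer at the larger metastasis, and the difference between the 2 metastases was not tested. Around the larger one, near spots were at 1.19 CP10k (0.94 to 1.49) and the far spots closest to it at 0.815 CP10k (0.645 to 1.02), a ratio of 1.46 (1.05 to 2.03). Around the smaller one, near spots were at 0.576 CP10k (0.429 to 0.758) and its far spots at 0.472 CP10k (0.424 to 0.525), a ratio of 1.22 with an interval that includes 1 (0.890 to 1.64). Their rims were at 0.912 CP10k (0.712 to 1.15) and 1.08 CP10k (0.716 to 1.56), so that the rim of the larger metastasis exceeded its own far spots by 1.12-fold, within counting error (0.801 to 1.56). Stat3 near spots were at 2.09 CP10k (1.75 to 2.47) around the larger and 1.3 CP10k (1.07 to 1.56) around the smaller metastasis, with far spots at 1.26 and 1.17 CP10k, and the ratio at the smaller one was within counting error (1.11, 0.903 to 1.35). Within compartments, near Socs3 exceeded far Socs3 beyond counting error in T and NK cell-rich spots (2.61-fold, 1.26 to 5.65; 13 and 24 spots), and the ratios were 1.24 in macrophage-rich, 1.34 in neutrophil-rich and 1.13 in other lung spots with intervals that include 1.

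Far from the metastases Socs3 still exceeded the control section, by 2.95-fold (2.56 to 3.41), while Stat3 was 1.06-fold (0.980 to 1.14); the Stat3 ratio was 1.16 after thinning (1.03 to 1.3) and also 1.16 without abundant genes (1.08 to 1.26), both above 1. Socs3 and Osm were the 2 of 9 members at least 1.5-fold higher in this comparison, in which 3.59% of 14693 genes were that much higher and 15.7% that much lower. After thinning to 5000 counts, Socs3 was counted in 26.0% of far spots (22.6 to 29.7%) and 8.85% of control spots (7.47 to 10.4%), and unthinned in 42.5% and 16.6%. The ratio was 2.51 over 900 µm away and 4.69 for the far spots closest to the larger metastasis.

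The excess was present in every compartment that could be compared. In the 7 compartments with at least 20 spots on both sides, far Socs3 over control Socs3 was 2.13-fold in macrophage-rich spots (1.11 to 4.48), 2.48-fold in other lung (1.75 to 3.54), 2.67-fold in T and NK cell-rich (1.24 to 5.49), 3.14-fold in airway club and ciliated-rich (1.77 to 5.70), 3.66-fold in endothelial-rich (2.12 to 6.39), 5.0-fold in red blood cell-rich (2.63 to 9.86) and 6.41-fold in mesothelium-rich spots (3.49 to 11.9). Of 7128 genes with at least 20 counts in each of these compartments, 44 had an interval above 1 in all 7 (0.617%) and 0.154% had one below 1 in all 7. Socs3 was the one of the 7 members so measured that belonged to the 44, and none belonged to the lower set. Mesothelium-rich spots were at 0.186 CP10k in the control section and 1.19 CP10k in far lung. In red blood cell-rich spots, red blood cell genes filled more of the control counts (4283 against 2162 CP10k). That raises the ratio of Socs3, as of every other gene, in this compartment. Airway-rich spots had the lowest Socs3 in both sections, 0.0662 and 0.208 CP10k.

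Neutrophil markers moved with this difference. Their summed level was 26.4 CP10k in far lung and 2.46 CP10k in the control section, with 9 of 10 genes at least 1.5-fold higher and none at 0, and within the 7 compartments it was 4.82 to 34.6 CP10k in far lung and 0.874 to 3.33 CP10k in the control section. In near spots the neutrophil markers were at 19.9 CP10k. Macrophage markers stood at 5.35 CP10k in far lung and 3.34 CP10k in the control section, with 6 of 10 at least 1.5-fold higher. The immediate early genes Fos, Fosb, Jun, Egr1, Ier2, Atf3 and Dusp1 summed to 5.38 CP10k in far lung and 5.53 CP10k in the control section, while Junb and Myc, early response genes outside that sum, were 2.43-fold (2.16 to 2.74) and 5.10-fold (3.84 to 6.83) higher in far lung. The part of any of these in Socs3 was not tested.

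Other members had no such uniform shift. Stat3 was beyond counting error in mesothelium-rich (1.85-fold) and red blood cell-rich spots (1.98-fold) and between 0.873 and 1.13 in the other 5. Osmr was higher in endothelial-rich (2.04-fold, 1.20 to 3.42), mesothelium-rich (2.66-fold, 1.35 to 5.04), red blood cell-rich (2.65-fold, 1.43 to 4.89) and other lung spots (1.5-fold, 1.04 to 2.15). Il11ra1 was lower in 4 of the 7 and higher in red blood cell-rich spots (2.06-fold, 1.38 to 3.05). Those red blood cell-rich spots were not matched in content, since red blood cell genes stood at 2162 CP10k in far lung and 4283 CP10k in the control section, which lowers every other gene's level in the latter.

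**Figure D3:**
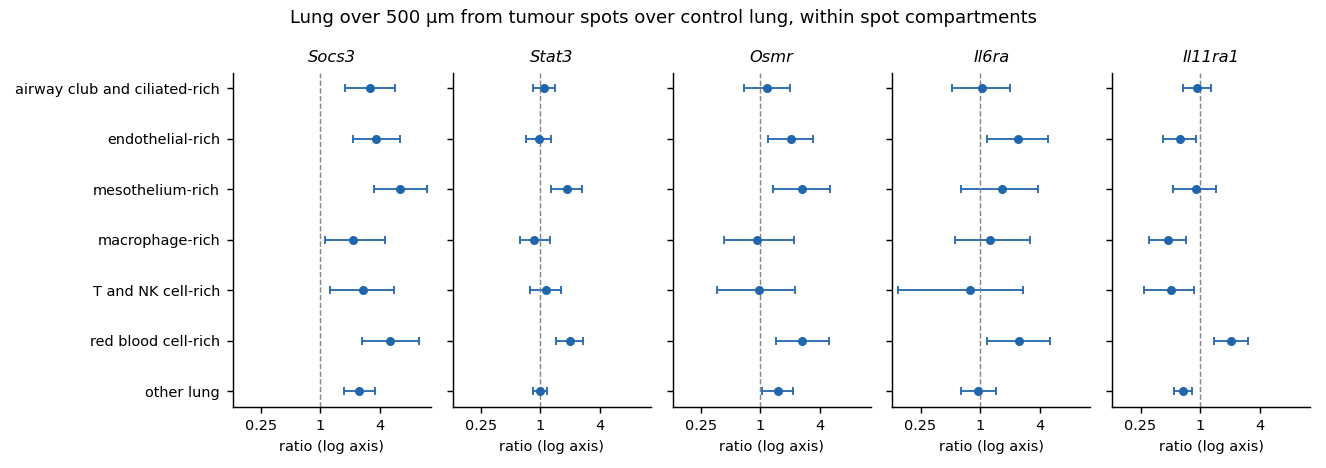
Ratio of the level in lung over 500 µm from tumour spots to that in the control section (log axis), within each compartment with at least 20 spots in both, for 5 members; points are ratios, bars exact 95% intervals for counting error, and the dashed line is 1. Socs3 lies above 1 in all 7 compartments, while Il11ra1 lies below 1 in 6 of them.

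In lung, Socs3 in spots with Osm did not differ from that in spots without it beyond counting error. Outside the tumour, the 17 spots with an Osm count had 12 Socs3 counts (0.505 CP10k) and the 926 without stood at 0.568 CP10k, a ratio of 0.888 (0.457 to 1.56). Spots next to one with Osm were at 0.473 CP10k and those neither with nor next to Osm at 0.580 CP10k (ratio 0.816, 0.616 to 1.06). Among far spots alone the ratio was 0.598 (0.193 to 1.41). In tumour spots it was 1.78 (1.01 to 2.94) on 17 Socs3 counts in 10 spots with Osm; within the rim it was 1.69 (0.841 to 3.10) and within the core 1.54 (0.483 to 3.81), both intervals including 1.

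For Lif the ratios differed between sets of spots. Over all tumour spots, those with Lif stood at 1.11-fold those without in Socs3 (0.774 to 1.57). Those next to one with Lif stood at 0.653-fold those neither with nor next to it (0.442 to 0.958). That set mixed core and rim unevenly, with 43 core and 19 rim spots next to Lif against 25 core and 52 rim spots. Within the rim alone the ratio for spots next to Lif was 1.14 (0.698 to 1.83). The 20 core spots with Lif had 0.593 CP10k of Socs3 and the 68 without had 0.331 CP10k, a ratio of 1.79 (1.06 to 3.02). Spots with Lif in the core were also deeper, with a median of 28418.5 counts against 14285.5, and spots next to one with Lif were not higher (0.675-fold, 0.317 to 1.5). In the rim (1.05-fold, 0.574 to 1.81) and outside the tumour (1.15-fold, 0.699 to 1.79) Socs3 was within counting error of spots without Lif. By zone, Lif was highest in the core and Socs3 was at its low end there. A spot in which a ligand transcript was not counted is not free of it at this depth, so these comparisons are of detection and cannot show absence of a relation.

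**Figure D4:**
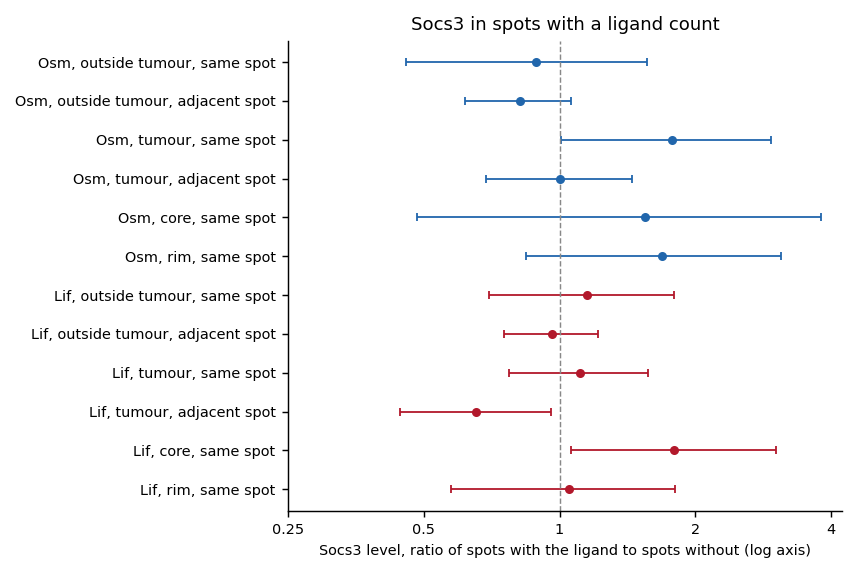
Ratio of the Socs3 level in spots with Osm (blue) or Lif (red) in the same spot to that in spots without it, or in spots adjacent to one with it to that in spots with it in neither place (log axis), with exact 95% intervals; the dashed line is 1. Of the 12 intervals, those of Lif in the core (1.79) and Osm in all tumour spots (1.78) lie above 1 and that of tumour spots adjacent to Lif (0.653) lies below 1. The set adjacent to Lif pools core and rim spots unevenly, and within core and rim separately its interval includes 1.

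Other genes of the pathway were taken from lists of ligands, receptors, kinases with regulators, and STAT3 target genes. Of 11 kinases and regulators, 5 were at least 1.5-fold higher in near than in far spots (19.9% of all genes) and none that much lower, with a median log2 ratio of 0.34 against 0.24 over all genes: Jak2 (1.57-fold), Tyk2 (1.65-fold), Socs1 (2.67-fold, 1.80 to 3.91), Ptpn2 (1.80-fold) and Adam17 (1.72-fold). Jak2 and Tyk2 are receptor kinases, Socs1 and Ptpn2 dampen them, and Adam17 sheds interleukin-6 receptor; interferons also induce Socs1. In the rim 8 of the 11 passed that fold (41.6% of all genes). Between far lung and control lung 1 of the 11 did, Socs1 (3.59% of all genes).

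Of the 20 STAT3 target genes, 6 were at least 1.5-fold higher near than far (19.9% of all genes) and none as much lower (6.14% of all genes). Their median log2 ratio was 0.27, close to that of all genes. Over all pathway lists the highest near over far ratios were those of Saa3, an acute-phase protein (7.90-fold, 7.36 to 8.48), Ccl2, a monocyte chemokine (7.03-fold, 5.32 to 9.32), and Timp1, a metalloproteinase inhibitor (4.85-fold, 3.96 to 5.94). The lowest were those of Hp, haptoglobin (0.691-fold, 0.652 to 0.732), Ctf1, the gp130 ligand cardiotrophin 1 (0.719-fold, 0.276 to 1.59), and Cntfr, the receptor chain for ciliary neurotrophic factor (0.822-fold, 0.377 to 1.61). The target list was chosen with earlier results of these data known, so its shares are descriptive and give no independent support. Far over control, 11 of the 20 targets were at least 1.5-fold higher (3.59% of all genes) and none as much lower. Their median log2 ratio over the 20 was 0.64 against -0.19 over all genes. The 11 were Bcl3, Pim1, Junb, Myc, Timp1, Lrg1, Lcn2, Saa3, Hp, Nfil3 and Ccl2. Several of them, Lcn2, Hp and Saa3 among them, are acute-phase genes that inflammatory cytokines outside this family induce as well. Neutrophil markers (26.4 against 2.46 CP10k) and macrophage markers (5.35 against 3.34 CP10k) moved with these targets between far and control lung, Lcn2, Lrg1 and Hp are also expressed by neutrophils, and the part of these cells was not tested. Saa3 showed the widest gap, with 1310 counts in far spots and 109 in the control section (29.8-fold, 24.5 to 36.6).

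Of the other ligands, Clcf1 was the one at least 1.5-fold higher near than far among the 3 of 7 with enough counts (1.58-fold, 0.960 to 2.52). Over all genes 19.9% were that much higher. None of the other ligands passed that fold between far and control lung (3.59% of all genes). In the rim 2 of the 3 with enough counts passed it over far lung (41.6% of all genes), Clcf1 (2.24-fold, 1.34 to 3.59) and Ebi3 (2.25-fold, 1.21 to 3.98). In the core Clcf1 passed it (1.73-fold, 1.07 to 2.72, with 36.2% of all genes). Ebi3 and Ctf1 were at most 1/1.5 as high there, within counting error. Il27ra, the receptor chain of interleukin-27, was 1 of 2 other receptors with enough counts and was higher in far lung than in the control section (1.86-fold, 1.12 to 3.07). Its near over far ratio, 1.6 on 9 near counts, was within counting error (0.670 to 3.46). Il31ra, which pairs with Osmr in the interleukin-31 receptor, had no count in the spots compared.

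The genes most like each member were found by Pearson correlation of log2 levels over 23 compartments and tumour groups of both sections, among 11139 genes. These points share 2 libraries and their depth, so the values describe likeness with no test. Socs3 was most like Il1b, the cytokine interleukin-1 beta (0.92), Sbno2 (0.92) and Copb1 (0.90). In the metastatic section alone (10 groups) its nearest genes were others, Copz1, Junb and Snf8 (all 0.98). Lifr was most like the endothelial genes Ptprb, Ramp2 and Podxl (all 0.98), and Il6st most like Ptms (0.96), Id3 (0.95) and Heg1 (0.94). Stat3 was most like Dusp6, Ly6e and Rap1a (all 0.95), Il11ra1 like Lamb2 (0.97), Oplah (0.95) and Tnxb (0.93), Osmr like Eif2b4, Copb1 and Erf (all 0.87), and Il6ra like Sf3b4 (0.86), Chil3 (0.85) and Atf2 (0.85). Osm and Lif had too few counts for this comparison.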

How the data were processed

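The deposited values were unnormalized counts of unique molecules, 1 value for each gene in each tissue-covered spot, made by the authors with Space Ranger 1.3.1 on mm10 according to the submitters' processing notes. Filtered matrices of 1 control and 1 metastatic lung section were used, with no further filter on spots. The members and gene lists were chosen with earlier results of these data known.

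Levels were summed counts per 10000. Ratios took an exact interval from the binomial split of the summed counts, with 95% confidence, and 0 counts were taken to allow at most 3. No test across spots was made, since spots are not replicates. Ratios and intervals were checked on simulated counts with known folds. Tumour spots came from k-means with 5 clusters (8 for the core) on 20 principal components of 2000 variable genes, members and pathway genes left out; spots lie 100 µm apart. The cluster with the highest 4T1 list level among those with AT2 and airway lists below the level of the section was taken, and 2 isolated spots were dropped. Of the 8 clusters, the core cluster (9.68 CP10k of the 4T1 list) was not the highest. Another of 92 spots (10.3 CP10k) was left out by the limit on the AT2 and airway lists. Because spots hold several cells, compartments were the spots at or above the 90th percentile of the mean z-score of 13 marker lists. Background shares used genes with at least 20 counts and 1.5-fold.

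Genes outside the members were named where their near over far ratio was among the 3 highest or lowest of the pathway lists, with at least 20 counts. The other gp130 ligands were also named with their counts in tumour spots. Likeness used log2(CP10k + 0.05), genes with at least 200 counts and groups of at least 20 spots, and the 3 nearest genes were named; genes that passed a fold in a list were named beside its count, and 2 genes of the lists are not reported here. Scripts ran in Python 3.11.15 (scikit-learn 1.9.0, scipy 1.17.1, matplotlib 3.10.9, pandas 2.3.3, numpy 2.4.6). Alternatives covered clusters, each metastasis, distances, thinning to 5000 counts (362 control and 82 metastatic spots left out), library size without 420 abundant genes, per-spot means and compartment limits. The core and rim, Lif in place of Osm, the immediate early genes, ratios within compartments and leaving out airway-rich spots were chosen after seeing the data. Gene positions are from GENCODE M21 on GRCm38, which is mm10, and promoters from RefSeq on GRCm38.p6; protein sequences were not used here.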

Additional observations from a re-analysis of the deposited data

How the results depend on the processing

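With 1 section per condition there was no replicate to leave out and no test. No paired analysis was possible because each group has 1 sample. Of 313 values recomputed for 38 ratios, 263 stayed inside the counting interval of the reported ratio and 50 moved outside it; no ratio whose interval left out 1 turned its direction. In 8 more cases a group had no count and no ratio was formed, among them Osm near over far around the larger metastasis and with near set to 100 µm.

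Socs3 near over far moved to 1.22 around the smaller metastasis alone. Socs3 far over control moved to 4.69 for spots closest to the larger metastasis, to 2.51 with far set to over 900 µm and to 3.46 after thinning, and stayed above 1 in every alternative. Socs3 rim over far was 1.12 in the larger metastasis alone (0.801 to 1.56), so its excess there was within counting error, as it was after thinning (1.39, 0.936 to 2.01). The 2 ligands are limited by depth: with 30 and 50 counts, a ratio between zones rests on 1 to 24 counts. Tumour spots by the 4T1 marker score were not run, because 0 spots scored above every control spot.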
